A study of Mus musculus with 12 samples.

Results

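The response to auxin was compared between the MTF2-AID and SUZ12-AID lines of mouse cardiac precursors. For each gene the quantity is the auxin effect in MTF2-AID minus the auxin effect in SUZ12-AID, where an auxin effect is the mean of log2(TPM + 1) with auxin minus the mean without it (TPM is a level scaled for transcript length and library size). The comparison used 8 of the 12 libraries in the series, and a gene was tested if it reached 1 TPM in 2 or more of the 8, which left 15171 genes. A negative difference means that auxin moved the gene lower in MTF2-AID relative to SUZ12-AID. Such a difference can come from opposite movements or from movement of 1 line, so the genes that passed were separated into those classes.

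Polycomb repressive complex 2 (PRC2) places the repressive methyl mark on lysine K27 of histone H3 and keeps developmental genes silent in cells that do not need them. SUZ12 is a core subunit without which the complex does not hold together, and MTF2 is an accessory subunit of the Polycomb-like family that binds CpG-rich DNA and helps bring part of the complex to its targets. An auxin-inducible degron (AID) is a tag that lets the plant F-box protein Tir1 mark the tagged protein for destruction once auxin is added. In the embryo, cardiac precursors arise from lateral mesoderm, which also lies close to the progenitors of endothelium and blood.

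The cells were C57BL/6 mouse embryonic stem cells taken through embryoid bodies to the cardiac precursor stage, in media that held VEGF from the second aggregation on. All 4 groups carried Tir1: SUZ12-AID untreated, SUZ12-AID with auxin, MTF2-AID untreated and MTF2-AID with auxin, each with 2 replicates that the series calls biological. Auxin was given as IAA at 50 µM, and the labels do not give when it was added or for how long. Each subunit was represented by 1 line, and no untagged line with auxin was compared here, so loss of the subunit and other properties of the line or of auxin itself cannot be told apart.

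Read numbers recovered from the TPM values lay between 10138920 and 17173072 per library. Replicate libraries lay closer together in MTF2-AID (median absolute log2 difference 0.102 untreated and 0.0877 with auxin) than in SUZ12-AID (0.197 and 0.143). Markers of cardiac precursors and lateral mesoderm were present in all groups, with 11 of 12 passing the level filter, and Tbx5 stayed under 1 TPM. The endoderm genes Ttr and Afp and the trophoblast gene Elf5 were at or near 0, but other members of their lists were not. Group means ran from 18.8 to 51.1 TPM for Cxcr4 of the endoderm list and from 86.0 to 433 TPM for Cdx2 of the trophoblast list. The summed endoderm markers lay between 21.7 and 54.9 TPM, mostly Cxcr4, and the summed neural markers between 35.1 and 75.0 TPM, mostly Nes. In bulk RNA, fewer cells of a type and less RNA per cell cannot be told apart.

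The tag acts on proteins, so the transcripts of the tagged genes do not check the degradation. For Suz12 the untreated and auxin libraries of SUZ12-AID gave 113 and 127 against 106 and 109 TPM, and those of MTF2-AID gave 60.9 and 63.0 against 59.99 and 60.7. Its level was lower in MTF2-AID than in SUZ12-AID, by 0.94 on the log2 scale untreated (adjusted p = 0.00171) and by 0.83 with auxin (adjusted p = 0.000391). For Mtf2 the untreated and auxin libraries of SUZ12-AID gave 21.3 and 26.7 against 21.6 and 22.0 TPM, and those of MTF2-AID gave 22.4 and 21.7 against 26.0 and 24.7. The difference of effects did not pass for Suz12 (0.11, adjusted p = 0.617), for Mtf2 (0.31, adjusted p = 0.329) or for the accessory subunit gene Jarid2 (-0.34, adjusted p = 0.358).

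The auxin effect differed between the lines for 1082 genes, 7.13% of those tested, at a limma adjusted p under 0.05. It was lower in MTF2-AID for 919 genes (6.06%) and higher for 163 (1.07%), and the difference was at least 1 on the log2 scale in 644 and 44 of them. The change lay mainly in SUZ12-AID, where 1711 genes rose (11.3%) and 401 fell (2.64%). In MTF2-AID 6 genes passed (0.0395%), while 453 were higher and 629 lower at an unadjusted p under 0.05, and none passed with limma-voom on the recovered reads. Leaving out each library in turn left 0 to 4 genes passing in MTF2-AID, and a pseudocount of 0.1 or a minimum of 5 TPM left 1, while a fit of all 12 libraries gave 11 and a variance weight per line gave 120. The difference shares the 4 SUZ12-AID libraries with the SUZ12-AID effect, so these 2 sets of calls are not independent. The counts depended on single libraries. Genes lower in MTF2-AID numbered 239 without SUZ12-AID auxin replicate 2, 249 or 456 without MTF2-AID untreated replicate 1 or 2, and 312 or 250 without MTF2-AID auxin replicate 1 or 2. Genes higher in MTF2-AID numbered 589 without SUZ12-AID untreated replicate 1 and 27 to 88 without either auxin replicate of SUZ12-AID or any library of MTF2-AID. The share of passing differences that were lower in MTF2-AID was 84.9%, against 76.9% with median-of-ratios scaling, 75.0% after quantile normalization and 60.6% without SUZ12-AID untreated replicate 1.

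No gene passed in both lines with opposite signs, in the limma fit or with limma-voom. The genes nearest to an opposite response were 400 that rose in SUZ12-AID and whose MTF2-AID effect was below -0.25 without passing. Their medians were 1.02 for the SUZ12-AID effect and -0.43 for the MTF2-AID effect, and in 384 of the 400 both MTF2-AID auxin libraries lay below both untreated ones. A mirror set of 20 genes fell in SUZ12-AID with an MTF2-AID effect above 0.25, and in 18 of them both MTF2-AID auxin libraries lay above both untreated ones. The bound on the MTF2-AID effect used the same libraries and itself favours such separation, so nothing is read from these 2 counts. In the SUZ12 line alone, 416 genes rose and 107 fell while the MTF2-AID effect stayed within 0.25 of 0. Many of these also leaned to the opposite side in MTF2-AID. Both MTF2-AID auxin libraries lay below both untreated ones in 191 of the 416, and above them in 59 of the 107. Of all genes 22.1% lay below and 24.3% above in this way, but a passing difference favours genes that lean to opposite sides. For 278 of the 416 and 100 of the 107 the 95% interval of the MTF2-AID effect lay within 0.5 of 0, and for all of both sets within 1, although 23 and 11 of them reached an unadjusted p under 0.05 in MTF2-AID. Leaving out single libraries moved these classes widely. The genes of the SUZ12 line alone numbered 69 up and 18 down without SUZ12-AID auxin replicate 2, 246 and 56 without SUZ12-AID auxin replicate 1, and 74 to 114 up and 15 to 29 down without any 1 library of MTF2-AID. They numbered 426 up and 483 down without SUZ12-AID untreated replicate 1. The 420 genes with an uncalled MTF2-AID effect on the other side became 135 without SUZ12-AID auxin replicate 2, 158 or 318 without MTF2-AID untreated replicate 1 or 2, and 221 or 165 without MTF2-AID auxin replicate 1 or 2. An uncalled effect is not shown to be absent, and the border at 0.25 runs through a continuous range: 99 genes lay between 0.20 and 0.25 and 92 between 0.25 and 0.30. The remaining genes were 33 with an MTF2-AID effect beyond 0.25 in the same direction, 5 that passed in MTF2-AID and not in SUZ12-AID, and 101 that passed in neither line.

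**Figure D1:**
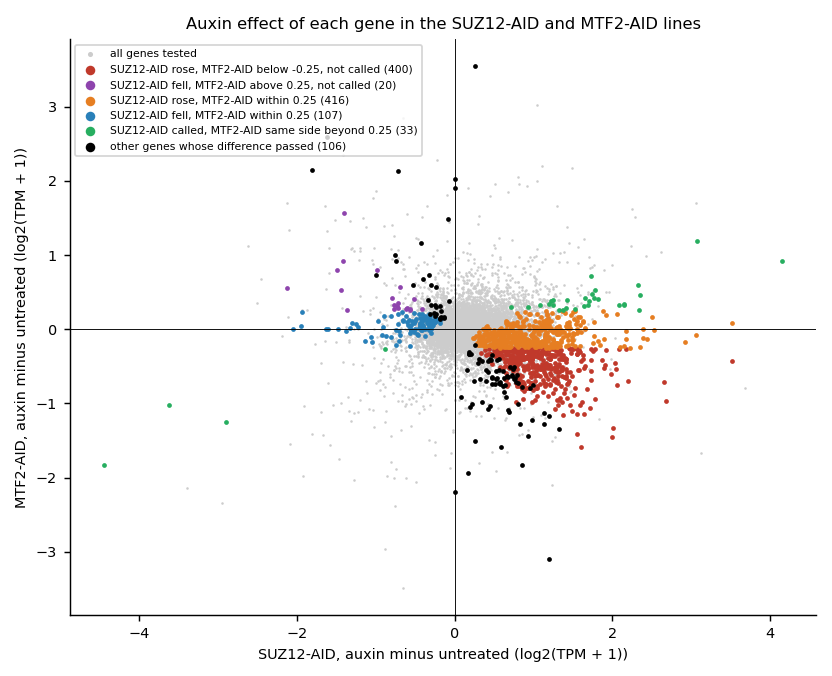
Each point is a gene, with its auxin effect in SUZ12-AID on the horizontal axis and in MTF2-AID on the vertical axis, both as auxin minus untreated in log2(TPM + 1). Coloured points are the 1082 genes whose difference passed, and the 400 genes in red and 416 in orange lie to the right of 0 with MTF2-AID values below or near 0.

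Weaker criteria widened the opposite class. Among the 1082 genes, 745 had both auxin libraries apart from both untreated ones in each line and on opposite sides, 643 of them higher with auxin in SUZ12-AID. This holds for 14.3% of all genes tested, but opposite movement itself enlarges the difference that chose the 1082, so nothing is read from that contrast. Over all 15171 genes, without regard to the difference, 348 genes at an unadjusted p under 0.05 in both lines were higher in SUZ12-AID and lower in MTF2-AID and 58 the reverse, while 143 were higher in both and 56 lower in both. When each line was given its own variance weight in limma (0.627 for SUZ12-AID and 1.6 for MTF2-AID), 37 genes passed in both lines with opposite signs. Of these, 35 were higher with auxin in SUZ12-AID and 2, Car4 and Spin2c, were lower. All 37 passed the difference and the SUZ12-AID effect in the unweighted fit, where their MTF2-AID adjusted p was 0.156 to 0.276. They included Sox18, Icam2, Cdh5, Tie1, Anxa1, Fosl1, Btg2, Plk2 and Hoxc13, named here after their values were seen.

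The MTF2-AID effect was then read over the genes called in SUZ12-AID, a contrast that takes no value from MTF2-AID, although the level filter and the variance of the fit are shared. Of the 1711 genes that rose in SUZ12-AID, 61.5% had an MTF2-AID effect below 0, against 46.8% of all genes tested and 44.7% of those that did not pass in SUZ12-AID. Both MTF2-AID auxin libraries lay below both untreated ones in 40.3% of the 1711 genes and above them in 21.7%, against 22.1% and 24.3% of all genes. The 401 genes that fell in SUZ12-AID gave 50.9% below 0, with both auxin libraries below in 33.9% and above in 30.2%. In a fit of the 4 SUZ12-AID libraries alone, with their own filter, variance and adjustment and added after seeing the data, 1013 genes rose. Of these 61.8% had an MTF2-AID effect below 0, against 46.4% of the 14653 genes in that fit. The 131 genes that fell in that fit also lay below 0 more often, in 55.0%. Both MTF2-AID auxin libraries lay below in 35.1% of the 131 and above in 23.7%, against 22.1% and 24.8% of the 14653. The share among genes that rose was 62.7% with median-of-ratios scaling (49.1% of all genes) and 61.0% after quantile normalization (47.5%). It was 57.8% to 62.0% when each library was left out in turn, with 45.1% to 49.9% of all genes. The narrowest gap, 57.8% against 49.9%, came without MTF2-AID untreated replicate 1. Over bands of the untreated mean the share was 53.2% under 1 TPM (48.4% of all genes in the band), 61.3% from 1 to 5 TPM (54.6%), 61.9% from 5 to 20 TPM (46.5%) and 65.2% above that (42.9%), so the gap was smaller among weakly expressed genes. These shares are descriptions over genes, which are not independent.

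Endothelial genes had the lowest median difference among the 33 lists examined. Of 26 genes, all of which passed the level filter, 19 were lower in MTF2-AID by the difference and 1 was higher, and 17 rose and 1 fell in SUZ12-AID. Over all genes, the background for this and each list below, 6.06% were lower and 1.07% higher by the difference. In SUZ12-AID 11.3% of all genes rose and 2.64% fell. None passed in MTF2-AID, but all 26 had an MTF2-AID effect below 0, 20 at an unadjusted p under 0.05, and in 23 both auxin libraries lay below both untreated ones. Of all genes 46.8% had an MTF2-AID effect below 0, and in 22.1% both auxin libraries lay below both untreated ones. The list medians were -1.89 for the difference, 1.12 for the SUZ12-AID effect and -0.69 for the MTF2-AID effect, against -0.05, 0.06 and 0.01 over all genes.

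Sox18 encodes a transcription factor of the early endothelium (mm10 chr2:181669836-181671640, minus strand; GENCODE annotation here and below). Sox18 measured 3.75 and 7.74 TPM in untreated SUZ12-AID, 27.6 and 22.2 with auxin, 14.6 and 12.7 in untreated MTF2-AID and 4.73 and 4.01 with auxin. Auxin and untreated libraries did not overlap in either line, a condition of the rule that named genes leaning to opposite sides. The order of the lines was the reverse with auxin. Its difference was -3.45 ± 0.37 (adjusted p = 0.00355), made of 2.00 ± 0.26 in SUZ12-AID and -1.45 ± 0.26 in MTF2-AID (SE of log2 values throughout).

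Cldn5, the claudin of endothelial tight junctions (chr16:18776847-18778262, plus strand), went from 2.48 and 1.53 to 20.8 and 14.9 TPM in SUZ12-AID, with 4.09 and 3.39 untreated and 2.01 and 1.77 with auxin in MTF2-AID. Icam2, an adhesion molecule of endothelium, went from 3.26 and 2.85 to 13.7 and 17.03 TPM in SUZ12-AID, with 8.01 and 8.38 untreated and 2.09 and 3.33 with auxin in MTF2-AID. Both genes were lower with auxin in each MTF2-AID library and higher in each SUZ12-AID library. Their differences were -3.36 ± 0.31 (adjusted p = 0.00197) and -3.34 ± 0.28 (adjusted p = 0.00185).

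Cd34, a surface sialomucin of endothelium and blood progenitors, went from 3.04 and 4.55 to 20.3 and 21.4 TPM in SUZ12-AID, with 11.1 and 10.4 untreated and 6.93 and 5.59 with auxin in MTF2-AID. Esam, an endothelial adhesion molecule at cell junctions, went from 3.77 and 2.99 to 18.6 and 15.9 TPM in SUZ12-AID, with 8.64 and 8.35 untreated and 5.28 and 4.04 with auxin in MTF2-AID. Cdh5 encodes VE-cadherin, the cadherin of endothelial junctions (chr8:104101625-104144511, plus strand), and went from 4.95 and 8.31 to 18.8 and 23.1 TPM in SUZ12-AID, with 12.5 and 14.4 untreated and 5.52 and 5.55 with auxin in MTF2-AID. In all of these the auxin and untreated libraries lay apart in each line and moved to opposite sides, as the naming rule required. The differences were -2.90 ± 0.25 (adjusted p = 0.00185) for Cd34, -2.82 ± 0.24 (adjusted p = 0.00185) for Esam and -2.69 ± 0.30 (adjusted p = 0.0038) for Cdh5.

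Tie1, an endothelial receptor tyrosine kinase (chr4:118471191-118490061, minus strand), is given as a further defining marker chosen after its values were seen. Tie1 measured 3.31 and 5.15 TPM in untreated SUZ12-AID, 11.7 and 11.8 with auxin, 8.12 and 8.53 in untreated MTF2-AID and 3.78 and 3.40 with auxin. Its difference was -2.33 ± 0.26 (adjusted p = 0.0038). The upstream bases of Cldn5 and Tie1 are shown because both genes moved to opposite sides in the lines, and because MTF2 is known to bind DNA rich in CG pairs. They are the 250 bases before the RefSeq start site (GRCm38.p6), written 5′ to 3′ on the gene's strand with every CG in capitals, for Cldn5 at chr16:18776597-18776846, plus strand, 12 CG pairs, and for Tie1 at chr4:118489850-118490099, minus strand, 6 CG pairs. Over 32851 such windows of RefSeq starts the median was 6 CG pairs, and 92.1% held at least 1. The RefSeq start used can lie inside the GENCODE bounds of a gene, and most of the Tie1 window lies inside the bounds given above.
Cldn5: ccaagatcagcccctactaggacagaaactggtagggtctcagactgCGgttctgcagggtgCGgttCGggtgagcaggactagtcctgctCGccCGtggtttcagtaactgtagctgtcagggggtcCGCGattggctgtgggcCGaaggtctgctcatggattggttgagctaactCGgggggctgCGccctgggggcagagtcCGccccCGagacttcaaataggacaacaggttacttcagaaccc
Tie1: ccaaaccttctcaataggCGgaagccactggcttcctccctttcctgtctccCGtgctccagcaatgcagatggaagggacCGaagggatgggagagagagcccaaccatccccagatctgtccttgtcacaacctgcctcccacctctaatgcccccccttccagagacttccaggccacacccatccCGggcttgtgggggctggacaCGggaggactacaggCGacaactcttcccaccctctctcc

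Pecam1, which encodes the adhesion molecule CD31 of endothelium and pluripotent cells, was the exception in the list. Pecam1 measured 78.0 and 89.6 TPM in untreated SUZ12-AID, 46.2 and 43.5 with auxin, 57.3 and 54.5 in untreated MTF2-AID and 49.3 and 43.7 with auxin. It fell in SUZ12-AID and its difference was positive, 0.62 ± 0.14 (adjusted p = 0.0347), a call lost without SUZ12-AID auxin replicate 1 or 2, MTF2-AID untreated replicate 1 or 2 or MTF2-AID auxin replicate 1 or 2 (highest adjusted p = 0.136). Pecam1 is the most abundant of the 6 endothelium markers, all of which were detected, and their summed level follows it. The sum was 90.4 to 109 TPM in untreated SUZ12-AID and 89.1 to 92.2 with auxin, and 84.0 to 84.4 in untreated MTF2-AID and 55.6 to 62.4 with auxin. Without Pecam1, a sum taken after the values were seen, the 5 other markers went from 12.4 to 19.07 TPM untreated to 42.9 to 48.7 with auxin in SUZ12-AID. In MTF2-AID they went from 27.1 to 29.5 TPM to 11.9 to 13.1. The part of cell composition in these results was not tested.

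The levels of the lines crossed in the list. Without auxin 10 endothelial genes were higher in MTF2-AID than in SUZ12-AID and 1 was lower, and with auxin 21 were lower and none was higher. Over all genes 4.98% differed between the untreated lines and 23.4% between the lines with auxin. The list medians of the MTF2-AID minus SUZ12-AID level were 0.78 untreated and -1.08 with auxin. Since the difference of effects is the auxin level difference minus the untreated one, both levels enter it by construction. The order of the line means reversed in 36.5% of all genes and in 74% of the 919 genes lower by the difference. No source of the difference is read from this.

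**Figure D2:**
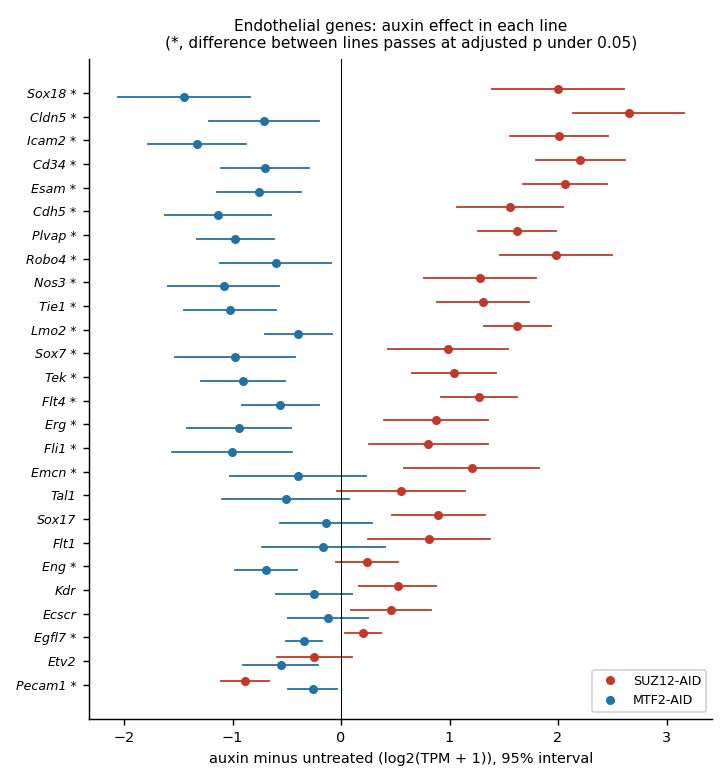
The horizontal axis is the auxin effect in log2(TPM + 1) with its 95% interval, in red for SUZ12-AID and in blue for MTF2-AID, for the 26 endothelial genes ordered by the difference between the lines. All 26 blue points lie below 0, and Pecam1 at the bottom is 1 of 2 genes with a red point below 0.

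Other genes with values on opposite sides in the lines belonged to several classes. Anxa1 encodes annexin A1, a calcium-dependent membrane-binding protein of epithelia (chr19:20373428-20390944, minus strand). Anxa1 measured 11.8 and 11.98 TPM in untreated SUZ12-AID, 71.6 and 94.1 with auxin, 7.04 and 6.36 in untreated MTF2-AID and 2.51 and 3.45 with auxin. It rose in SUZ12-AID by 2.69 ± 0.17 while both MTF2-AID auxin libraries lay below the untreated ones. Its difference was -3.65 ± 0.24 (adjusted p = 0.00163) and its MTF2-AID effect -0.96 ± 0.17 (adjusted p = 0.211). Its upstream bases, shown for contrast with the promoters above and in the same form, lie at chr19:20390672-20390921, minus strand, 2 CG pairs. This window lies wholly inside the GENCODE bounds of Anxa1, since the RefSeq start used lies within them.
Anxa1: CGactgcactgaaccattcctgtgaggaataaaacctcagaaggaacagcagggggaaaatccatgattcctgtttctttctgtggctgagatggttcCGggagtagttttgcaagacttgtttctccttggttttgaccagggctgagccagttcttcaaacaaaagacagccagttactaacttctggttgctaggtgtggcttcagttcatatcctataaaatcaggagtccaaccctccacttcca

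Cdkn2a, which encodes the cell-cycle inhibitors INK4A and ARF and is a known PRC2 target (chr4:89274471-89294653, minus strand), had the largest difference among the genes named by the rule. Cdkn2a measured 5.59 and 7.49 TPM in untreated SUZ12-AID, 88.6 and 81.1 with auxin, 12.4 and 12.2 in untreated MTF2-AID and 10.2 and 7.74 with auxin. Its difference was -3.95 ± 0.23 (adjusted p = 0.00163), carried by 3.52 ± 0.16 in SUZ12-AID against -0.43 ± 0.16 in MTF2-AID. The MTF2-AID libraries lay apart on the lower side, by much less than the rise in SUZ12-AID.

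Fosl1, a subunit of the AP-1 transcription factor, went from 5.86 and 4.18 to 18.4 and 20.7 TPM in SUZ12-AID, with 5.32 and 5.62 untreated and 2.69 and 2.09 with auxin in MTF2-AID, with a difference of -2.72 ± 0.26 (adjusted p = 0.00197). Fxyd5, a regulator of the sodium pump, went from 2.59 and 2.20 to 9.47 and 8.94 TPM in SUZ12-AID, with 5.89 and 5.27 untreated and 3.26 and 1.49 with auxin in MTF2-AID, with a difference of -2.61 ± 0.35 (adjusted p = 0.00614). Clec1b, a C-type lectin receptor of platelets and their precursors, went from 0.808 and 2.25 to 6.44 and 7.50 TPM in SUZ12-AID, with 2.37 and 2.05 untreated and 0.374 and 0.716 with auxin in MTF2-AID, with a difference of -2.78 ± 0.40 (adjusted p = 0.00815). All of them were lower in both MTF2-AID auxin libraries, as the naming rule required. The Clec1b call was lost without SUZ12-AID auxin replicate 2 (highest adjusted p = 0.0516), and its SUZ12-AID effect also did not pass without that library (adjusted p = 0.0692). Zscan4b, a member of a cluster of near-identical genes whose reads may be split between copies, went from 1.15 and 2.12 to 6.05 and 8.21 TPM in SUZ12-AID, with 8.76 and 3.96 untreated and 1.25 and 3.46 with auxin in MTF2-AID. Its difference of -2.77 ± 0.58 (adjusted p = 0.0295) is therefore uncertain, and was lost without SUZ12-AID untreated replicate 1, SUZ12-AID auxin replicate 1 or 2, MTF2-AID untreated replicate 1 or MTF2-AID auxin replicate 1 (highest adjusted p = 0.127) and with line weights (0.0576). Its SUZ12-AID effect did not pass without SUZ12-AID untreated replicate 1 or SUZ12-AID auxin replicate 1 or 2 (highest adjusted p = 0.21).

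In the list of genes activated by p53 the differences that passed were all lower in MTF2-AID, the direction of most passing differences over all genes. Of 24 p53 targets and apoptosis genes tested, 14 were lower in MTF2-AID by the difference and none was higher, against 6.06% and 1.07% of all genes. In SUZ12-AID 17 rose and none fell, against 11.3% and 2.64% of all genes. None passed in MTF2-AID, with 9 lower and none higher at an unadjusted p under 0.05. Both auxin libraries lay below both untreated ones in 19 of 24, against 22.1% of all genes. The medians were -0.82 for the difference, 0.60 in SUZ12-AID and -0.20 in MTF2-AID.

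Plk2, a polo-like kinase induced by p53, went from 52.5 and 56.5 to 112 and 127 TPM in SUZ12-AID, with 69.3 and 60.1 untreated and 44.9 and 46.1 with auxin in MTF2-AID, with a difference of -1.61 ± 0.13 (adjusted p = 0.00185). Perp, a desmosome protein of the p53 response, went from 59.1 and 62.2 to 153 and 184 TPM in SUZ12-AID, with 63.9 and 55.4 untreated and 52.8 and 46.8 with auxin in MTF2-AID, with a difference of -1.71 ± 0.16 (adjusted p = 0.00197). Eda2r, a receptor of the tumour necrosis factor family, went from 10.7 and 13.2 to 24.5 and 28.8 TPM in SUZ12-AID, with 17.5 and 17.8 untreated and 13.7 and 13.2 with auxin in MTF2-AID, with a difference of -1.46 ± 0.18 (adjusted p = 0.00553). In all of these the auxin libraries lay above the untreated ones in SUZ12-AID and below them in MTF2-AID. Fas, the death receptor, went from 1.38 and 1.18 to 5.93 and 3.55 TPM in SUZ12-AID, with 1.80 and 1.71 untreated and 0.668 and 1.07 with auxin in MTF2-AID. Its difference was -1.87 ± 0.34 (adjusted p = 0.0187), a call lost without MTF2-AID untreated replicate 1 or 2 or MTF2-AID auxin replicate 1 or 2 (highest adjusted p = 0.0776) and after quantile normalization (adjusted p = 0.0676).

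Of 15 cell-cycle inhibitor genes, some of them also on the p53 list, 9 were lower in MTF2-AID by the difference and none was higher. The shares over all genes were 6.06% and 1.07%. In SUZ12-AID 10 rose and none fell, and in MTF2-AID 5 were lower at an unadjusted p under 0.05. Btg2, an antiproliferative p53 target, went from 65.4 and 65.7 to 117 and 149.9 TPM in SUZ12-AID, with 70.9 and 65.5 untreated and 45.8 and 45.3 with auxin in MTF2-AID, and its difference was -1.57 ± 0.16 (adjusted p = 0.00282). Cdkn2b, which encodes the INK4B inhibitor and lies beside Cdkn2a, went from 5.23 and 5.11 to 21.6 and 29.6 TPM in SUZ12-AID, with 4.70 and 3.27 untreated and 3.93 and 2.41 with auxin in MTF2-AID. Here the MTF2-AID libraries overlapped. The difference was -2.36 ± 0.33 (adjusted p = 0.00737), with an MTF2-AID effect of -0.27 (95% interval -0.81 to 0.27). Gadd45a, a growth arrest gene, went from 23.5 and 17.7 to 40.4 and 43.0 TPM in SUZ12-AID, with 16.3 and 15.7 untreated and 8.76 and 11.98 with auxin in MTF2-AID. Its difference was -1.59 ± 0.24 (adjusted p = 0.00937), lost without SUZ12-AID auxin replicate 2 or MTF2-AID untreated replicate 1 (highest adjusted p = 0.058), and its SUZ12-AID effect did not pass without SUZ12-AID auxin replicate 2 (adjusted p = 0.0742).

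The mirror set was small. Car4, a membrane carbonic anhydrase (chr11:84957786-84966044, plus strand), had the lowest adjusted p of the 6 genes named from it. Car4 measured 313 and 317 TPM in untreated SUZ12-AID, 194 and 175 with auxin, 384 and 389.6 in untreated MTF2-AID and 453 and 483 with auxin. It fell in SUZ12-AID by 0.77 on the log2 scale, its MTF2-AID effect was 0.27 ± 0.06 (adjusted p = 0.267), and its difference was 1.04 ± 0.09 (adjusted p = 0.00185). Spin2c, an X-linked member of the spindlin family of histone readers with close copies, went from 117 and 119 to 84.7 and 62.7 TPM in SUZ12-AID, with 92.8 and 109 untreated and 147 and 152 with auxin in MTF2-AID. Its difference was 1.26 ± 0.19 (adjusted p = 0.00937), lost without MTF2-AID auxin replicate 2 (highest adjusted p = 0.0505), and its SUZ12-AID effect did not pass without SUZ12-AID auxin replicate 2 (adjusted p = 0.065).

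Pitx1, a homeobox factor of the hindlimb field, went from 31.4 and 29.9 to 14.7 and 8.70 TPM in SUZ12-AID, with 39.3 and 48.9 untreated and 49.0 and 56.3 with auxin in MTF2-AID. Its MTF2-AID libraries nearly touched, and its difference of 1.62 ± 0.30 (adjusted p = 0.0189) was lost without MTF2-AID untreated replicate 1 or MTF2-AID auxin replicate 1 or 2 (highest adjusted p = 0.0856). Cox4i2, a subunit of cytochrome oxidase, went from 7.67 and 7.80 to 4.12 and 4.50 TPM in SUZ12-AID, with 4.58 and 4.57 untreated and 5.86 and 6.47 with auxin in MTF2-AID. Smoc2, a secreted matrix protein, went from 15.05 and 17.7 to 10.2 and 8.28 TPM in SUZ12-AID, with 12.3 and 10.7 untreated and 15.7 and 13.7 with auxin in MTF2-AID. Hist1h2ag, a histone H2A gene with near-identical copies whose reads may be shared, went from 9.44 and 8.53 to 4.72 and 1.43 TPM in SUZ12-AID, with 3.20 and 4.57 untreated and 8.34 and 7.99 with auxin in MTF2-AID. In all of these the libraries of the lines lay apart on opposite sides, but each call was lost when some libraries were left out. The difference was 1.08 ± 0.20 (adjusted p = 0.0184) for Cox4i2, lost without SUZ12-AID auxin replicate 1 or 2, MTF2-AID untreated replicate 1 or 2 or MTF2-AID auxin replicate 1 or 2 (highest adjusted p = 0.0923). It was 1.10 ± 0.21 (adjusted p = 0.0223) for Smoc2, lost without SUZ12-AID auxin replicate 2, MTF2-AID untreated replicate 1 or 2 or MTF2-AID auxin replicate 1 or 2 (highest adjusted p = 0.101). It was 2.34 ± 0.50 (adjusted p = 0.031) for Hist1h2ag, lost without SUZ12-AID untreated replicate 1, MTF2-AID untreated replicate 1 or 2 or MTF2-AID auxin replicate 1 or 2 (highest adjusted p = 0.115). Their SUZ12-AID effects did not pass without SUZ12-AID auxin replicate 2 (adjusted p = 0.0625, 0.107 and 0.103). Further libraries that ended that call were SUZ12-AID auxin replicate 1 for Cox4i2 and both untreated SUZ12-AID and both auxin MTF2-AID libraries for Hist1h2ag.

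**Figure D3:**
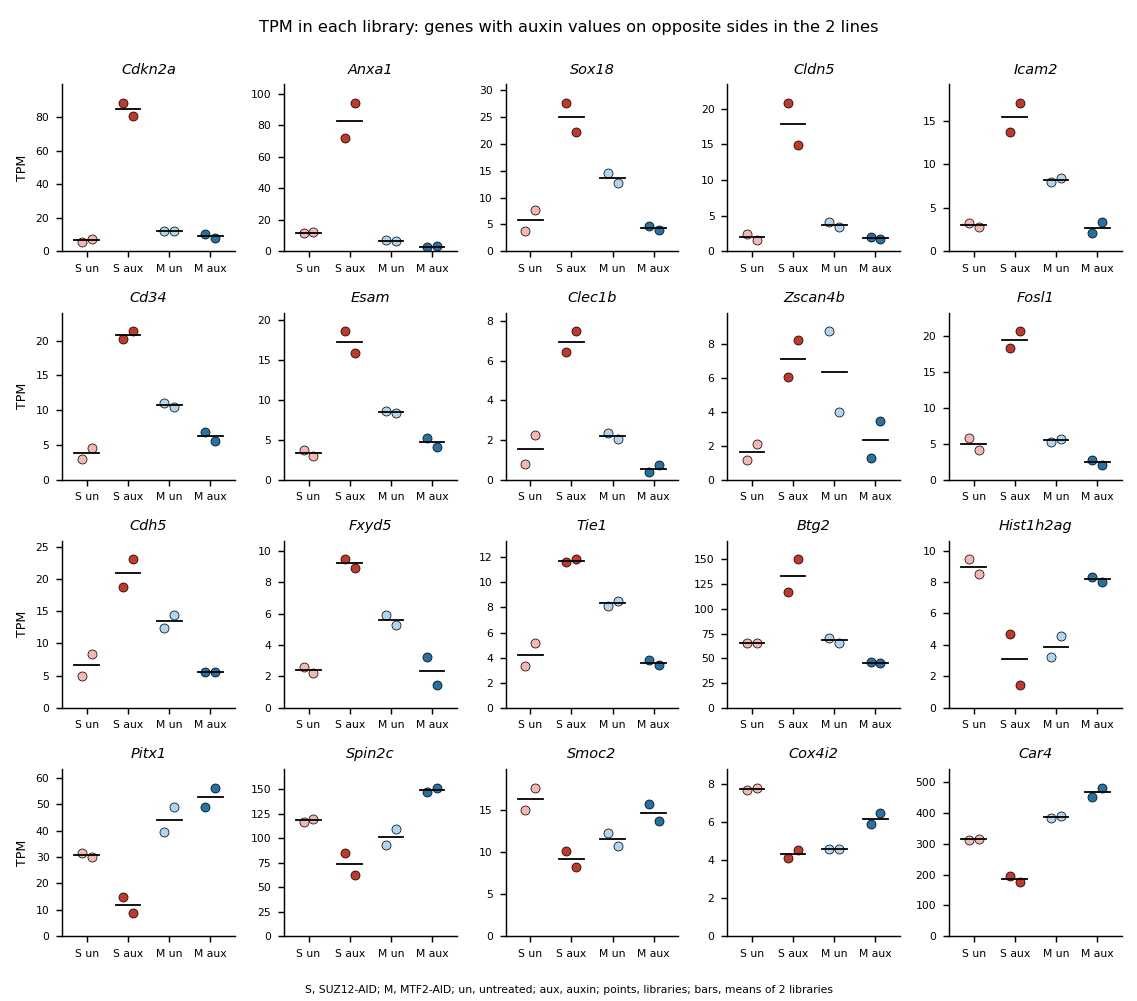
Each panel is a gene, with TPM on a linear axis from 0, points for the 2 libraries of each group and a bar for their mean. In the first 14 panels the SUZ12-AID auxin libraries lie above the untreated ones and the MTF2-AID auxin libraries below theirs, as for Sox18, at 27.6 and 22.2 TPM with auxin in SUZ12-AID and 4.73 and 4.01 TPM in MTF2-AID, and in the last 6 panels the sides are exchanged. For all genes but Tie1 and Btg2 this separation was a condition of the rule that named them.

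In the class of the SUZ12 line alone, the genes with the largest differences by the naming rule included transcription factors and secreted or cytoskeletal proteins. Tbx15, a T-box factor of limb and skeletal development (chr3:99240381-99354259, plus strand), came first by the rule. Tbx15 measured 0.615 and 0.539 TPM in untreated SUZ12-AID, 16.8 and 17.5 with auxin, 2.56 and 2.50 in untreated MTF2-AID and 2.29 and 3.31 with auxin. The MTF2-AID libraries overlapped, with an effect of 0.09 (95% interval -0.32 to 0.50), and the difference was -3.44 ± 0.25 (adjusted p = 0.00163). The untreated MTF2-AID libraries already stood above the untreated SUZ12-AID ones, by 1.16 ± 0.18 (adjusted p = 0.0129).

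Nkx2-5, the cardiac homeobox factor (chr17:26838664-26845009, minus strand), also rose in SUZ12-AID, with overlapping MTF2-AID libraries. Nkx2-5 measured 2.77 and 1.73 TPM in untreated SUZ12-AID, 28.4 and 23.4 with auxin, 6.50 and 5.06 in untreated MTF2-AID and 4.88 and 6.02 with auxin. Its difference was -3.13 ± 0.29 (adjusted p = 0.00197), and the 95% interval of its MTF2-AID effect was -0.55 to 0.41. It was the cardiac factor with the largest difference among 28 tested (of 30 listed), of which 4 were lower in MTF2-AID (Nkx2-5, Hopx, Hand2 and Irx4) and 2 higher (Hand1 and Bmp4).

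Gprc5a, a G-protein coupled receptor of epithelia, went from 2.98 and 3.35 to 25.0 and 37.4 TPM in SUZ12-AID, with 2.95 and 2.70 untreated and 2.86 and 1.98 with auxin in MTF2-AID, and its difference was -3.10 ± 0.31 (adjusted p = 0.00252). Gsn, the actin-severing protein gelsolin, went from 24.9 and 21.6 to 108 and 139 TPM in SUZ12-AID, with 22.4 and 19.7 untreated and 18.6 and 16.8 with auxin in MTF2-AID, and its difference was -2.59 ± 0.20 (adjusted p = 0.00163). Igfbp5, an insulin-like growth factor binding protein, went from 5.65 and 5.21 to 36.4 and 31.3 TPM in SUZ12-AID, with 10.0 and 12.6 untreated and 10.0 and 10.4 with auxin in MTF2-AID, and its difference was -2.56 ± 0.20 (adjusted p = 0.00172). In each, the 4 MTF2-AID libraries stayed within a narrow range, and for Gsn both MTF2-AID auxin libraries lay just below the untreated ones.

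Plaur, the urokinase receptor, went from 10.9 and 9.58 to 50.5 and 52.0 TPM in SUZ12-AID, with 5.59 and 5.597 untreated and 4.60 and 4.52 with auxin in MTF2-AID, and its difference was -2.47 ± 0.16 (adjusted p = 0.00163). Trh, the thyrotropin-releasing hormone gene, went from 2.44 and 2.68 to 15.2 and 20.3 TPM in SUZ12-AID, with 6.01 and 6.93 untreated and 5.38 and 6.35 with auxin in MTF2-AID, and its difference was -2.51 ± 0.25 (adjusted p = 0.00252). Vax2, a homeobox factor of the ventral eye, went from 0.329 and 1.63 to 10.1 and 9.49 TPM in SUZ12-AID, with 2.04 and 2.72 untreated and 2.48 and 2.21 with auxin in MTF2-AID. The MTF2-AID libraries overlapped for Trh and Vax2. The Vax2 difference of -2.54 ± 0.42 (adjusted p = 0.0137) was lost without SUZ12-AID auxin replicate 2, MTF2-AID untreated replicate 1 or 2 or MTF2-AID auxin replicate 1 or 2 (highest adjusted p = 0.0669). Of these 8 genes, Igfbp5, Trh, Tbx15 and Nkx2-5 were higher in untreated MTF2-AID than in untreated SUZ12-AID and Plaur was lower, each at an adjusted p under 0.05.

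Most pluripotency genes that passed were of the SUZ12 line alone. Of 23 tested (of 27 listed), 10 were lower in MTF2-AID by the difference and 1 was higher, 13 rose and 2 fell in SUZ12-AID, and the median MTF2-AID effect was -0.03. Of the 11 that passed the difference, 9 were of the SUZ12 line alone and 2 leaned to opposite sides. Of all 1082 genes whose difference passed, 523 were of the SUZ12 line alone and 420 leaned to opposite sides. Dppa5a, a gene of early embryonic and germ cells, went from 6.74 and 7.49 to 29.1 and 39.3 TPM in SUZ12-AID, with 13.0 and 13.8 untreated and 9.56 and 13.1 with auxin in MTF2-AID, with a difference of -2.34 ± 0.26 (adjusted p = 0.00361). Klf2, a factor of naive pluripotency that endothelium also expresses, went from 11.2 and 10.7 to 35.4 and 33.3 TPM in SUZ12-AID, with 13.9 and 15.8 untreated and 11.9 and 17.6 with auxin in MTF2-AID. Its difference was -1.59 ± 0.24 (adjusted p = 0.00937), lost without SUZ12-AID auxin replicate 2 (highest adjusted p = 0.0513). The summed level of 6 pluripotent cell markers was 135 to 158 TPM in untreated SUZ12-AID, 222 to 269 with auxin, and 172 to 181 over the 4 MTF2-AID libraries. Pou5f1 and Utf1 made up most of that sum. In SUZ12-AID the mean of Nanog was 5.28 TPM untreated and 4.76 with auxin, while the means of the other markers were higher with auxin. Lin28a, an RNA-binding protein of stem and progenitor cells, was the gene whose passing difference went against the list. Its levels were 277 ± 20.7 and 219.9 ± 1.88 TPM in SUZ12-AID and 351 ± 7.13 and 368 ± 4.42 in MTF2-AID (mean ± SD, n = 2, untreated then auxin). Its difference was 0.40 ± 0.09 (adjusted p = 0.0334), lost without SUZ12-AID auxin replicate 1 or 2, MTF2-AID untreated replicate 1 or 2 or MTF2-AID auxin replicate 1 or 2 (highest adjusted p = 0.133) and after quantile normalization (adjusted p = 0.0757), and its SUZ12-AID effect did not pass without SUZ12-AID auxin replicate 2 (adjusted p = 0.0826).

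Epithelial genes divided between the classes. Of 24 tested (of 27 listed), 12 were lower in MTF2-AID by the difference and none was higher, and 20 rose and none fell in SUZ12-AID. Among those 12, 6 leaned to opposite sides, 4 were of the SUZ12 line alone and 2 had MTF2-AID values on the same side. Of all 1082 genes whose difference passed, these classes held 420, 523 and 33. A division between the first 2 classes is therefore also what all passing genes show. Cldn4, a claudin of epithelial tight junctions, went from 193 and 173 to 505 and 594 TPM in SUZ12-AID, with 137 and 117 untreated and 93.1 and 79.4 with auxin in MTF2-AID, with a difference of -2.13 ± 0.17 (adjusted p = 0.00172). Its relative Cldn3 went from 24.1 and 18.998 to 85.5 and 98.4 TPM in SUZ12-AID, with 14.4 and 10.4 untreated and 7.97 and 8.29 with auxin in MTF2-AID, with a difference of -2.59 ± 0.24 (adjusted p = 0.00197). Both claudins were lower in untreated MTF2-AID than in untreated SUZ12-AID (adjusted p = 0.0436 and 0.0417), and their MTF2-AID auxin libraries lay lower still.

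Germline genes had the second lowest list median, -1.48, with 7 of 14 tested (of 23 listed) lower in MTF2-AID and none higher. The shares over all genes were 6.06% and 1.07%. Of those 7, 5 leaned to opposite sides, against 420 of all 1082 genes whose difference passed. Taf7l, a germ cell partner of the basal transcription machinery, went from 2.71 and 2.37 to 7.28 and 8.501 TPM in SUZ12-AID, with 6.74 and 6.99 untreated and 3.77 and 4.80 with auxin in MTF2-AID, with a difference of -1.91 ± 0.23 (adjusted p = 0.00497). Tex19.1, a germ cell gene that restrains transposable elements, went from 7.30 and 4.98 to 15.3 and 20.6 TPM in SUZ12-AID, with 9.26 and 9.64 untreated and 7.42 and 6.50 with auxin in MTF2-AID. Its difference of -1.81 ± 0.28 (adjusted p = 0.00985) was lost without SUZ12-AID auxin replicate 2 or MTF2-AID auxin replicate 2 (highest adjusted p = 0.0536). Hoxc13, the Hox gene with the largest negative difference, went from 3.83 and 3.88 to 8.30 and 9.72 TPM in SUZ12-AID, with 4.45 and 4.14 untreated and 2.25 and 1.98 with auxin in MTF2-AID, with a difference of -1.81 ± 0.22 (adjusted p = 0.00489).

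Genes that fell in the SUZ12 line alone were fewer, and several were abundant. Hand1, a lateral mesoderm and heart factor and the most abundant cardiac precursor marker here (chr11:57828705-57832818, minus strand), was among them. Hand1 measured 2291 and 2552 TPM in untreated SUZ12-AID, 1077 and 989.8 with auxin, 1369.7 and 1352 in untreated MTF2-AID and 1397 and 1372 with auxin. It fell in SUZ12-AID by 1.23 on the log2 scale, while the MTF2-AID effect was 0.02 (95% interval -0.12 to 0.17), and the difference was 1.25 ± 0.09 (adjusted p = 0.00163). SUZ12-AID stood above MTF2-AID untreated and below it with auxin. The summed level of 12 cardiac precursor and lateral mesoderm markers, to which Hand1 contributes most, was 2629 to 2944 TPM in untreated SUZ12-AID and 1540 to 1625 with auxin. It was 1719 to 1731 TPM in untreated MTF2-AID and 1749 to 1772 with auxin. Without Hand1, again summed after the values were seen, the 11 other markers went the other way in SUZ12-AID, from 338 to 391.8 TPM untreated to 548.5 to 550.5 with auxin, and were at 362 to 377 TPM over the 4 MTF2-AID libraries. The part of cell composition in the fall of Hand1 was not tested.

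Cdx2, a caudal homeobox factor of the posterior embryo and trophoblast (chr5:147300805-147307270, minus strand), showed another arrangement. Cdx2 measured 234 and 212 TPM in untreated SUZ12-AID, 98.8 and 73.2 with auxin, 427 and 439 in untreated MTF2-AID and 425 and 425 with auxin. Its difference was 1.35 ± 0.17 (adjusted p = 0.00563) and the 95% interval of its MTF2-AID effect was -0.31 to 0.25. MTF2-AID stood above SUZ12-AID already without auxin, by 0.95 ± 0.12 (adjusted p = 0.00661), and the gap with auxin was 2.31 ± 0.12 (adjusted p = 3.7e-05). The upstream bases of Nkx2-5 and Cdx2 are shown in the form used above, as promoters of a gene that rose and a gene that fell in SUZ12-AID alone. They lie at chr17:26841566-26841815, minus strand, 8 CG pairs, for Nkx2-5, and at chr5:147307250-147307499, minus strand, 13 CG pairs, for Cdx2. The Nkx2-5 window lies wholly inside the GENCODE bounds of that gene, since the RefSeq start used lies within them. The counts of CG pairs describe these windows, and no comparison of classes was made since 71.6% of the genes tested had a window.
Nkx2-5: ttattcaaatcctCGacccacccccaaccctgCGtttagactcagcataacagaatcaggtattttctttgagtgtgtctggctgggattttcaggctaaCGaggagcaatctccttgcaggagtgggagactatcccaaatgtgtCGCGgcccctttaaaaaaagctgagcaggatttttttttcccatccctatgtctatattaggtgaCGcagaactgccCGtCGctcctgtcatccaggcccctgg
Cdx2: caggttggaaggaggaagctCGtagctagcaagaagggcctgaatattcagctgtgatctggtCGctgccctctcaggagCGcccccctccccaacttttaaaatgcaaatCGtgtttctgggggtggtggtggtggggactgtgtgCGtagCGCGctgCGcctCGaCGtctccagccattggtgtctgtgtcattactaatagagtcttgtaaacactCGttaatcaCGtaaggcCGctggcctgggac

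Cldn11, a claudin of Sertoli cells and myelin, went from 25.8 and 29.6 to 5.85 and 7.22 TPM in SUZ12-AID, with 10.9 and 14.7 untreated and 12.7 and 17.7 with auxin in MTF2-AID, and its difference was 2.16 ± 0.28 (adjusted p = 0.0057). Hoxb6, a Hox gene of the trunk, went from 15.9 and 18.1 to 4.34 and 3.05 TPM in SUZ12-AID, with 22.7 and 25.7 untreated and 26.9 and 23.3 with auxin in MTF2-AID, and its difference was 2.00 ± 0.23 (adjusted p = 0.0041). Irx3, an Iroquois homeobox factor, went from 76.4 and 77.8 to 36.4 and 25.9 TPM in SUZ12-AID, with 42.3 and 42.2 untreated and 43.6 and 46.1 with auxin in MTF2-AID, and its difference was 1.38 ± 0.20 (adjusted p = 0.00744). In each the SUZ12-AID auxin libraries were the lowest of the 8.

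Tdo2, tryptophan dioxygenase, went from 59.9 and 61.5 to 25.2 and 22.0 TPM in SUZ12-AID, with 28.0 and 36.8 untreated and 32.9 and 32.4 with auxin in MTF2-AID, and its difference was 1.35 ± 0.18 (adjusted p = 0.00643). Polg, the catalytic subunit of the mitochondrial DNA polymerase, went from 374 and 472 to 214 and 215 TPM in SUZ12-AID, with 355 and 375 untreated and 397 and 394 with auxin in MTF2-AID, and its difference was 1.09 ± 0.14 (adjusted p = 0.00537). Tvp23a, a Golgi membrane protein, went from 10.2 and 11.8 to 5.58 and 5.35 TPM in SUZ12-AID, with 6.55 and 7.81 untreated and 8.61 and 7.81 with auxin in MTF2-AID. The Tvp23a difference of 1.07 ± 0.21 (adjusted p = 0.0222) was lost without SUZ12-AID auxin replicate 1 or 2, MTF2-AID untreated replicate 1 or MTF2-AID auxin replicate 1 or 2 (highest adjusted p = 0.102), and its SUZ12-AID effect did not pass without SUZ12-AID auxin replicate 2 (adjusted p = 0.058). Irx3, Tdo2, Hand1 and Cldn11 were lower in untreated MTF2-AID than in untreated SUZ12-AID and higher with auxin, with both level differences passing.

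Proliferation genes that passed had small differences and were of the SUZ12 line alone. Of 27 tested, 5 were higher in MTF2-AID by the difference and none was lower, 14 fell and none rose in SUZ12-AID, and none reached an unadjusted p under 0.05 in MTF2-AID. The medians were 0.31 for the difference, -0.28 in SUZ12-AID and 0.06 in MTF2-AID. Aurka, a mitotic kinase, went from 149 and 147 to 123 and 111 TPM in SUZ12-AID, with 127 and 129 untreated and 132 and 139 with auxin in MTF2-AID. Its difference of 0.42 ± 0.09 (adjusted p = 0.038) was lost without SUZ12-AID auxin replicate 2, MTF2-AID untreated replicate 1 or 2 or MTF2-AID auxin replicate 1 or 2 (highest adjusted p = 0.161), with median-of-ratios scaling (adjusted p = 0.0558) and after quantile normalization (adjusted p = 0.0553). Its SUZ12-AID effect did not pass without SUZ12-AID auxin replicate 2 (adjusted p = 0.107).

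**Figure D4:**
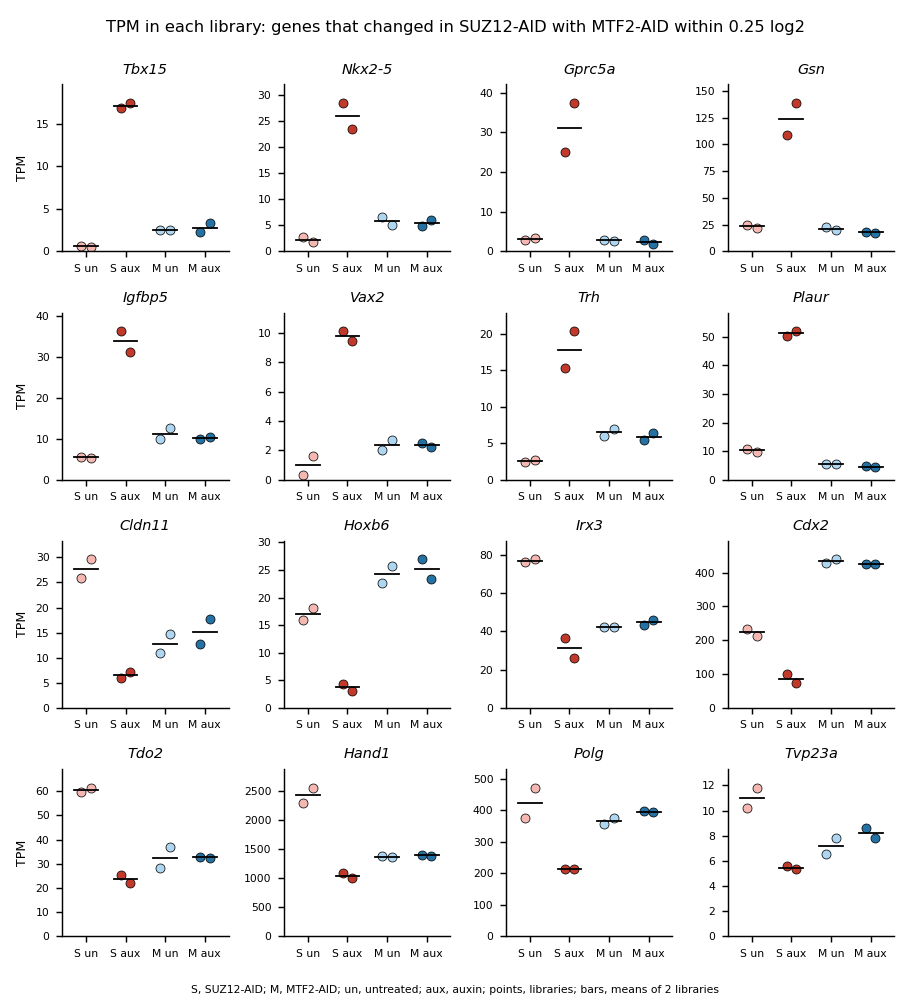
Each panel is a gene, with TPM on a linear axis from 0, points for the 2 libraries of each group and a bar for their mean. The first 8 genes rose and the last 8 fell in SUZ12-AID, for example Hand1 from 2291 and 2552 to 1077 and 989.8 TPM, while the MTF2-AID means with and without auxin stayed within 0.25 on the log2(TPM + 1) scale.

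In a further class SUZ12-AID moved further in the direction to which MTF2-AID also leaned. Esx1, an X-linked homeobox gene of the placenta, went from 0.454 and 0.347 to 22.3 and 25.8 TPM in SUZ12-AID, with 0.423 and 0.805 untreated and 2.82 and 1.41 with auxin in MTF2-AID. It had the largest SUZ12-AID effect among the genes named here that rose, 4.16 ± 0.25 (adjusted p = 0.000219), beside an MTF2-AID effect of 0.92 ± 0.25 (adjusted p = 0.346), and its difference was -3.24 ± 0.35 (adjusted p = 0.00358). Krt7, a keratin of simple epithelia and trophoblast, went from 4.26 and 2.34 to 31.5 and 37.3 TPM in SUZ12-AID, with 2.86 and 3.02 untreated and 9.24 and 6.87 with auxin in MTF2-AID. Its difference was -1.89 ± 0.33 (adjusted p = 0.0161), lost without SUZ12-AID auxin replicate 2, MTF2-AID untreated replicate 1 or 2 or MTF2-AID auxin replicate 2 (highest adjusted p = 0.0843). The MTF2-AID auxin libraries of both genes lay above the untreated ones without passing. Of 15 trophoblast genes tested (of 19 listed), 6 were lower in MTF2-AID by the difference and 2, Cdx2 and Hand1, were higher. The summed level of 6 trophoblast markers was 234.6 to 261 TPM in untreated SUZ12-AID and 164 to 174 with auxin, and 455 to 467 over the 4 MTF2-AID libraries, with Elf5 near 0. Cdx2 makes up most of that sum. Without it, a sum taken after the values were seen, the 5 other markers summed to 22.3 to 26.98 TPM in untreated SUZ12-AID and 74.8 to 90.5 with auxin, and to 27.4 to 27.95 in untreated MTF2-AID and 37.0 to 39.3 with auxin.

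Hand2, the partner of Hand1 in heart and limb, went from 48.3 and 48.2 to 168 and 151 TPM in SUZ12-AID, with 54.7 and 53.5 untreated and 65.98 and 75.5 with auxin in MTF2-AID, with a difference of -1.33 ± 0.12 (adjusted p = 0.00197). Six2, a homeobox factor of kidney and head mesenchyme, went from 6.16 and 6.45 to 30.7 and 29.2 TPM in SUZ12-AID, with 15.9 and 16.1 untreated and 20.9 and 19.9 with auxin in MTF2-AID, with a difference of -1.75 ± 0.14 (adjusted p = 0.00185). The MTF2-AID effects were 0.38 (95% interval 0.18 to 0.58) and 0.33 (0.10 to 0.56). Hand1 had a positive difference and Hand2 a negative one.

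H2-D1, a major histocompatibility complex (MHC) class I gene whose reads may be shared with its relatives, belonged to the same class: it went from 21.7 and 20.7 to 53.9 and 63.9 TPM in SUZ12-AID, with 32.1 and 31.5 untreated and 40.7 and 43.4 with auxin in MTF2-AID, with a difference of -1.04 ± 0.14 (adjusted p = 0.00645). Tap1, the peptide transporter of the class I pathway, went from 20.6 and 22.1 to 50.7 and 60.7 TPM in SUZ12-AID, with 24.2 and 22.6 untreated and 17.9 and 21.9 with auxin in MTF2-AID, with a difference of -1.57 ± 0.18 (adjusted p = 0.00434). Of 14 MHC class I and interferon genes tested (of 19 listed), 3 were lower in MTF2-AID by the difference and none was higher, 9 rose in SUZ12-AID, and 9 were higher at an unadjusted p under 0.05 in MTF2-AID. Psmb8, a subunit of the immunoproteasome, rose in both lines, by 0.86 ± 0.08 (adjusted p = 0.000908) in SUZ12-AID and by 0.74 ± 0.08 (adjusted p = 0.0453) in MTF2-AID. The MTF2-AID call held with both other scalings, line weights and all 12 libraries, and in none of the other 15 settings, among them voom and each library left out (highest adjusted p = 0.325). Its difference of -0.12 ± 0.12 did not pass (adjusted p = 0.651), with a 95% interval of -0.38 to 0.15. Psmb8 measured 26.6 and 27.7 TPM in untreated SUZ12-AID, 49.3 and 50.6 with auxin, 17.7 and 17.8 in untreated MTF2-AID and 30.1 and 30.6 with auxin.

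Blood genes mostly leaned to the lower side with auxin in both lines. Of 15 tested (of 20 listed), 7 fell and 2 rose in SUZ12-AID, 1 passed in MTF2-AID and 7 were lower at an unadjusted p under 0.05, and the median effects were -0.57 and -0.81. Hbb-bh1, an embryonic beta-type globin, went from 41.2 and 27.7 to 0.842 and 0.369 TPM in SUZ12-AID, with 5.78 and 3.54 untreated and 1.43 and 0 with auxin in MTF2-AID. Hba-x, the embryonic alpha-type globin, went from 6.52 and 6.44 to 0 and 0 TPM in SUZ12-AID, with 2.51 and 1.20 untreated and 0.364 and 0 with auxin in MTF2-AID. Their differences were positive, 2.62 ± 0.59 (adjusted p = 0.0375) and 1.65 ± 0.38 (adjusted p = 0.0411), with the untreated MTF2-AID level far below the untreated SUZ12-AID level and every group with auxin near 0. Fitted values of genes at or near 0 depend on the pseudocount, and these calls were weak: that of Hbb-bh1 was lost without SUZ12-AID untreated replicate 1, SUZ12-AID auxin replicate 1 or 2, MTF2-AID untreated replicate 1 or 2 or MTF2-AID auxin replicate 1 (highest adjusted p = 0.149), and that of Hba-x without SUZ12-AID untreated replicate 1 or 2, SUZ12-AID auxin replicate 1 or 2, MTF2-AID untreated replicate 2 or MTF2-AID auxin replicate 1 or 2 (highest adjusted p = 0.141). Both were also lost with a pseudocount of 0.1 (adjusted p = 0.5 and 0.165) and with line weights (0.073 and 0.0826). The summed level of 5 primitive blood markers was 38.7 to 51.5 TPM in untreated SUZ12-AID, 7.29 to 12.1 in untreated MTF2-AID and 1.54 to 3.72 with auxin in both lines.

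Itga2b, the platelet integrin CD41 of early blood progenitors (chr11:102453297-102470122, minus strand), was the protein-coding gene whose difference passed through a call in MTF2-AID. Itga2b measured 13.8 and 14.5 TPM in untreated SUZ12-AID, 18.4 and 18.1 with auxin, 18.2 and 17.7 in untreated MTF2-AID and 9.17 and 8.04 with auxin. Its MTF2-AID effect was -0.98 ± 0.11 (adjusted p = 0.0453), its SUZ12-AID effect 0.35 ± 0.11 (adjusted p = 0.0743) and its difference -1.33 ± 0.16 (adjusted p = 0.00458). The MTF2-AID call held in the same 4 of 19 other settings as that of Psmb8, and not with voom or with any 1 library left out (highest adjusted p = 0.316). In TPM the SUZ12-AID auxin libraries lay above both untreated ones, so the libraries of the 2 lines lay on opposite sides. Reads summed over both libraries, not scaled for depth, were 672 untreated and 646 with auxin in SUZ12-AID. In MTF2-AID they were 502 and 276. The untreated SUZ12-AID libraries were deeper, with 17173072 and 16577054 reads in total against 13906279 and 11008495 with auxin. The other 4 genes that passed in MTF2-AID were small RNA genes with very few reads in these polyadenylated libraries. Mir183 and Mir1945 had 2 reads each, both with auxin, and Mir7019 had 2 reads, both without it. Snora47 had 0 reads in untreated MTF2-AID against 13 with auxin, and 7 and 7 in SUZ12-AID. Their differences were 2.02 ± 0.29 (adjusted p = 0.00792) for Mir183, 1.90 ± 0.29 (adjusted p = 0.00985) for Mir1945, -2.19 ± 0.29 (adjusted p = 0.0061) for Mir7019 and 3.29 ± 0.40 (adjusted p = 0.00489) for Snora47. Those of the 3 Mir genes did not pass with a pseudocount of 0.1 (adjusted p = 0.0724, 0.0831 and 0.0584), that of Mir1945 did not pass without MTF2-AID auxin replicate 2 (0.0505), and that of Mir7019 did not pass in a fit of all 12 libraries (0.309). With so few reads, a difference in these genes is not established at this depth.

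Homeobox factors outside the Hox clusters differed in both directions. Of 53 tested (of 76 listed), 8 were higher and 10 lower in MTF2-AID by the difference, with a median of -0.31. Besides Cdx2, Irx3 and Pitx1, the higher ones included Cdx4, a caudal factor that went from 3.30 and 4.95 to 0.751 and 0.847 TPM in SUZ12-AID, with 0.632 and 0.601 untreated and 1.10 and 2.76 with auxin in MTF2-AID. Its difference was 2.29 ± 0.42 (adjusted p = 0.0189), lost without SUZ12-AID auxin replicate 1 or 2, MTF2-AID untreated replicate 1 or 2 or MTF2-AID auxin replicate 2 (highest adjusted p = 0.0781), and its SUZ12-AID effect did not pass without SUZ12-AID untreated replicate 2 or SUZ12-AID auxin replicate 1 or 2 (highest adjusted p = 0.0874). Of 23 Hox genes tested (of 39 listed), 2 were higher and 2 lower, beside 1.07% and 6.06% of all genes. Hopx, an atypical homeodomain protein of cardiac progenitors, went from 2.15 and 2.36 to 10.4 and 9.99 TPM in SUZ12-AID, with 5.17 and 4.29 untreated and 3.19 and 4.44 with auxin in MTF2-AID, with a difference of -2.05 ± 0.25 (adjusted p = 0.00501).

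Among the other lists, glycolysis and hypoxia genes had 7 members higher and 2 lower of 21. Ndrg1, a hypoxia and stress response gene, was the lower one with the larger difference: it went from 79.0 and 88.8 to 193 and 232 TPM in SUZ12-AID, with 76.5 and 60.1 untreated and 49.6 and 47.5 with auxin in MTF2-AID, with a difference of -1.80 ± 0.18 (adjusted p = 0.00301). Over all genes 1.07% were higher and 6.06% lower. Lateral and extraembryonic mesoderm genes had 6 higher and 2 lower of 23, and BMP and NODAL pathway genes 5 higher and 1 lower of 26. Stress response genes had 8 lower of 24, WNT pathway genes 5 lower of 30, and imprinted genes 6 lower of 34, with none higher in any of these. With 1.07% of all genes higher, an absence of higher members is also what all genes show. Of 25 housekeeping genes 1 was higher, and the median difference was -0.02.

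**Figure D5:**
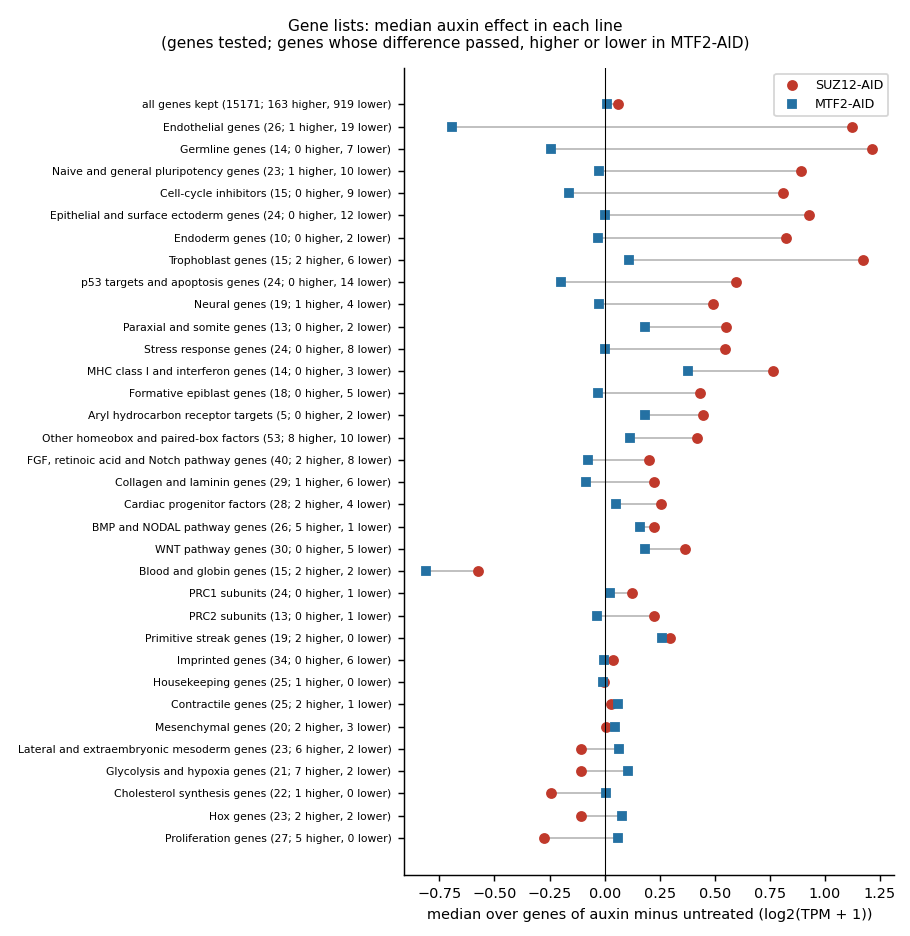
For each gene list the red point is the median auxin effect in SUZ12-AID and the blue square that in MTF2-AID, in log2(TPM + 1), with the number of genes tested and the numbers whose difference passed in each direction. Endothelial genes stand at 1.12 and -0.69, blood genes at -0.57 and -0.81, and all genes at 0.06 and 0.01.

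The genes whose difference passed were also split by the levels of the lines. Of all genes tested, 4.98% differed between the untreated lines and 23.4% between the lines with auxin. A call with auxin is thus commoner over all genes too. The difference is built from these same levels, so nothing about its source is read from the counts that follow. Of the 919 genes with a lower effect in MTF2-AID, 740 differed between the lines with auxin and not without it, 58 without auxin and not with it, 55 in both with opposite signs, 23 in both with the same sign and 43 in neither. Of the 163 genes with a higher effect the counts were 96, 30, 9, 16 and 12. For the 400 genes that leaned to opposite sides with SUZ12-AID up, the median MTF2-AID minus SUZ12-AID level was 0.31 untreated and -1.22 with auxin. For the 416 that rose in the SUZ12 line alone it was 0.14 and -0.79.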

How the data were processed

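PolyA-selected, strand-specific RNA-seq libraries were aligned with STAR 2.6.1d to mm10, per the submitters' processing notes. The authors deposited 1 table of TPM per gene and library, per the file headers. How the TPM were computed, and on which gene models, is not given in the sources used here. Low values fell on whole multiples of 1 read: all 240300 values above 0 gave whole reads within 0.001 reads, and these recovered reads gave the depth and the voom alternative. Depth limits weak genes, since a few reads of a short transcript can exceed 1 TPM.

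The 8 libraries of 4 groups were fitted with limma 3.58.1 (R 4.3.3) on log2(TPM + 1), with an intercept per group, 1 variance for all groups, empirical Bayes moderation (4 residual and 4.14 prior degrees of freedom) and Benjamini-Hochberg adjustment over 15171 genes. The 1 residual variance is shared although the SUZ12-AID replicates spread more. Genes that reached 1 TPM in 2 or more libraries were kept. Contrasts were the auxin effect in each line, their difference and the line difference at each treatment. The fit was tested on simulated data. The series calls the replicates biological and does not say whether they came from separate differentiations, so p-values cover the spread among these libraries only.

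The genes, lists and classes were chosen with earlier results of these data known. Genes named were those ranking highest by absolute difference within each class (mean of at least 5 TPM in a group, libraries apart in each line that passed, no placeholder, pseudogene or small RNA), and up to 4 per list. The rule for genes with an uncalled MTF2-AID effect on the opposite side was added after seeing the data, because no gene passed in both. It also required the MTF2-AID libraries to lie apart on that side, so for these genes the separation was a condition of the choice. Tie1, Pecam1, Lin28a, Psmb8, Snora47 and the Mir genes were named after their values were seen, Pecam1 and Lin28a as members that went against their lists. Positions are from GENCODE for mm10, and promoters from RefSeq (GRCm38.p6).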

Additional observations from a re-analysis of the deposited data

Results flagged for a closer look

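For the genes below, the auxin effects in the lines differed by the test of the difference itself (limma contrast of the effects, adjusted p under 0.05). Values are MTF2-AID minus SUZ12-AID effects on the log2(TPM + 1) scale. Where SUZ12-AID rose and MTF2-AID lay below -0.25, the values were -3.95 for Cdkn2a, -3.65 for Anxa1, -3.45 for Sox18, -3.36 for Cldn5, -3.34 for Icam2, -2.90 for Cd34, -2.82 for Esam, -2.78 for Clec1b, -2.77 for Zscan4b and -2.72 for Fosl1. Further values of that class were -2.69 for Cdh5, -2.61 for Fxyd5, -2.33 for Tie1, -2.36 for Cdkn2b, -1.59 for Gadd45a, -1.57 for Btg2, -1.87 for Fas, -1.71 for Perp, -1.61 for Plk2 and -1.46 for Eda2r. Further values of that class were -2.59 for Cldn3, -2.13 for Cldn4, -1.91 for Taf7l, -1.81 for Tex19.1, -2.05 for Hopx, -1.81 for Hoxc13 and -1.80 for Ndrg1. Where SUZ12-AID rose alone, they were -3.44 for Tbx15, -3.13 for Nkx2-5, -3.10 for Gprc5a, -2.59 for Gsn, -2.56 for Igfbp5, -2.54 for Vax2, -2.51 for Trh, -2.47 for Plaur, -2.34 for Dppa5a and -1.59 for Klf2. Further values of that class were -1.57 for Tap1. Where SUZ12-AID fell and MTF2-AID lay above 0.25, the differences were 2.34 for Hist1h2ag, 1.62 for Pitx1, 1.26 for Spin2c, 1.10 for Smoc2, 1.08 for Cox4i2, 1.04 for Car4 and 2.29 for Cdx4. Where SUZ12-AID fell alone, the values ran as 2.16 for Cldn11, 2.00 for Hoxb6, 1.38 for Irx3, 1.35 for Cdx2, 1.35 for Tdo2, 1.25 for Hand1, 1.09 for Polg, 1.07 for Tvp23a, 0.40 for Lin28a and 0.42 for Aurka. Where both lines leaned to the same side, they came to 0.62 for Pecam1, -1.33 for Hand2, -3.24 for Esx1, -1.75 for Six2, 2.62 for Hbb-bh1, 1.65 for Hba-x, -1.89 for Krt7 and -1.04 for H2-D1. The remaining genes gave -1.33 for Itga2b, 2.02 for Mir183, 1.90 for Mir1945, -2.19 for Mir7019 and 3.29 for Snora47. Groups of 2 libraries are too small for a test of outlying libraries.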

How the results depend on the processing

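With 2 libraries per group, single libraries set many calls. Leaving out each library in turn gave 239 to 1004 genes lower in MTF2-AID by the difference, 27 to 589 higher, 470 to 1825 up and 90 to 946 down in SUZ12-AID, 0 to 4 in MTF2-AID, 0 to 2 opposite in both lines, 69 to 511 and 15 to 483 up and down in the SUZ12 line alone, and 135 to 382 with an uncalled MTF2-AID effect on the other side. The lowest counts of genes up and down in SUZ12-AID came without SUZ12-AID auxin replicate 2, and the highest count down without SUZ12-AID untreated replicate 1. In these fits the lone library of a group is assumed to vary like the other groups. The cause was not tested for any of the shifts below.

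The genes that passed in MTF2-AID numbered 1 with a pseudocount of 0.1 and 1 with a minimum of 5 TPM. A pseudocount of 5 gave 688 genes up in the SUZ12 line alone and 224 with an uncalled MTF2-AID effect on the other side. Without a filter there were 95 genes higher by the difference and 248 up and 62 down in the SUZ12 line alone. Median-of-ratios scaling gave 255 genes higher by the difference, 846 down in SUZ12-AID and 196 down in the SUZ12 line alone. Quantile normalization gave 761 down in SUZ12-AID. The median difference over all genes was -0.05, against 0.02 and 0.05 after these scalings. A variance weight per line gave 846 up and 167 down in SUZ12-AID, 120 in MTF2-AID, 37 opposite in both lines and 221 with an uncalled effect on the other side. A fit of all 12 libraries gave 1429 genes lower and 317 higher by the difference, 642 down in SUZ12-AID, 11 in MTF2-AID, 1 opposite in both lines, and 729 up and 233 down in the SUZ12 line alone. Voom on the recovered reads gave 0 in MTF2-AID and 670 with an uncalled effect on the other side. A bound of 0.15 gave 246 up in the SUZ12 line alone, and a bound of 0.5 gave 677 and 170 with an uncalled effect on the other side. At an adjusted p under 0.01 the counts were 249 lower and 28 higher by the difference, 663 up and 113 down in SUZ12-AID, 0 in MTF2-AID, 73 up and 19 down in the SUZ12 line alone, and 157 with an uncalled effect on the other side. The count of opposite genes was 745 by libraries apart in each line, a criterion chosen after seeing the data.

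Same-numbered libraries deviated together more within SUZ12-AID (r = 0.267) than within MTF2-AID (0.0121) or between lines (-0.0794 to 0.137, over 10800 genes). The labels do not say whether replicate numbers are paired, and the main fit left them unpaired. With the replicate number as a block, 1 gene passed in MTF2-AID, and with a block within each line 2 passed, while the other counts of calls stayed within 1.5 times. The block within each line gave 1027 genes lower and 208 higher by the difference, and 1948 up and 513 down in SUZ12-AID. Of the 68 named genes whose difference passed, 45 held the call in each of 16 settings and none changed direction in them. Voom, the fit without a filter and the minimum of 5 TPM were not among these 16 settings. Of 528 list medians recomputed, 25 changed sign.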
